A study of Mus musculus with 9 samples.

Results

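The genes described here are 10 genes of the circadian clock and its direct outputs, measured in mouse kidneys with an obstructed ureter, kidneys released from obstruction and control kidneys. They are the activator Arntl, the period genes Per1, Per2 and Per3, the repressor Ciart, the nuclear receptors Nr1d1 and Nr1d2, the transcription factors Dbp and Tef, and Noct. The members were taken by gene symbol, as every array probe whose RefSeq accession carries one of these symbols, and the brightest probe stood for each gene. That gave 15 probes for 10 genes, out of 17741 genes tested. The genes were picked with differences between these arms already known, so their levels in control, obstructed and released kidneys are given as a description, without a test.

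All 9 mice were males aged 10 weeks on a mixed strain background. Every mouse, controls included, was of the ISAM genotype Epo–/–::3.3K-Epo3'-Tg458, a knockout of Epo together with an Epo transgene that models anaemia from lack of erythropoietin. There was thus no kidney from a non-anaemic mouse. In the clip arm (3 mice) a vascular clip closed the left ureter for 2 days, and in the release arm (3 mice, labelled ClipR-14) the clip was then off for 12 days. The control arm joined 2 sham-treated mice and 1 untreated mouse, for which the labels give no day of collection. RNA came from the whole left kidney, and 500 ng was amplified and labelled for a single-colour Agilent array. The sources used here give no hour of collection for any kidney, so no level below can be placed at a phase of the day.

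The mammalian clock is a feedback loop of transcription. BMAL1, the product of Arntl, pairs with CLOCK and switches on genes that carry an E-box in their promoters, among them the Per and Cry genes, Nr1d1, Nr1d2, Ciart and Dbp. PER and CRY proteins enter the nucleus and block BMAL1 and CLOCK, and CHRONO, the product of Ciart, acts as a further repressor. A second loop sets the rhythm of Arntl itself: REV-ERB alpha and beta (Nr1d1 and Nr1d2) repress it through a sequence called the RORE, at which ROR receptors activate. DBP, TEF and their relative HLF act through a further sequence, the D-box, where NFIL3 competes with them. Noct encodes nocturnin, an output enzyme with a strong daily rhythm in many tissues. In the kidney these genes are known to cycle in tubule cells, where they time salt and water transport.

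The sequences around the transcription start sites show which of these elements lie next to the genes. RefSeq windows (build GRCm38.p6) of 300 bases each, mostly upstream of a start site, were found for 9 of the 10 genes, in 12 windows. Per2 was not among them. Windows were searched on both strands for the E-box CACGTG, the D-box TTATGTAA or TTACGTAA, and the RORE, read as AAN followed by TAGGTCA or TGGGTCA. The E-box was present in windows of Ciart, Per1 and Tef, the D-box in that of Per3 and the RORE in a window of Arntl. Of all 32851 windows in the RefSeq table, 7.15% held the E-box, 1.06% the D-box and 0.435% the RORE. Counted by gene, the shares were 8.09%, 1.23% and 0.514% of 27025 genes. Below are the window of Arntl at chr7:113207261-113207560 (plus strand), which holds the RORE, that of Ciart at chr3:95882179-95882478 (minus strand), with 3 E-boxes, that of Per1 at chr11:69098699-69098998 (plus strand), with 1 E-box, and that of Per3 at chr4:151044616-151044915 (minus strand), with 2 D-boxes. They stand for the activator, the member whose probe was not well above background in clip kidneys, and both period genes with an element. Each runs 5′ to 3′ on the gene's strand, and capitals mark the element.
Arntl: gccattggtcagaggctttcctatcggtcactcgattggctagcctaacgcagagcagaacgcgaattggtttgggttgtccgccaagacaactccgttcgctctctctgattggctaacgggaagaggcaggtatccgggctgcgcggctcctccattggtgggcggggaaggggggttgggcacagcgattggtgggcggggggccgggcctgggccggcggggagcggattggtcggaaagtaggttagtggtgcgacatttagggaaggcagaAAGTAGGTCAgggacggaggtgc
Ciart: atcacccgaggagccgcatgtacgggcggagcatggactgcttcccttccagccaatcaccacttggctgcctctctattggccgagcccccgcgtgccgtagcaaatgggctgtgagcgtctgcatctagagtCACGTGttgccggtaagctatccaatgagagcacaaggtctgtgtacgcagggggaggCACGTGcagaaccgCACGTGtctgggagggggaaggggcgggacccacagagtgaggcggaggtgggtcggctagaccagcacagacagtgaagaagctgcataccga
Per1: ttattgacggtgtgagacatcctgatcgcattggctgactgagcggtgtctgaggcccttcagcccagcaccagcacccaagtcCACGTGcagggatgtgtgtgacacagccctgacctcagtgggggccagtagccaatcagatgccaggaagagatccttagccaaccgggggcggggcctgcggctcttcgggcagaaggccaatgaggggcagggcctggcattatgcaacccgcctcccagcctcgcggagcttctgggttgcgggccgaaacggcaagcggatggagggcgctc
Per3: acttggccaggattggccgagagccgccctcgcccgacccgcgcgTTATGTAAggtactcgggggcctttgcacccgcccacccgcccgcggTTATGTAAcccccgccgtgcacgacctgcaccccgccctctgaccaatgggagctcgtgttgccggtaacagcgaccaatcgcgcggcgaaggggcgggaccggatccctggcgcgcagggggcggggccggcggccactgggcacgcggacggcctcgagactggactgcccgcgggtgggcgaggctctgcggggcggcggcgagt

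Counted from the start site, with negative positions upstream, the E-boxes of Ciart began at -116, -58 and -44 and that of Per1 at -166. The D-boxes of Per3 began at -205 and -158. The RORE of Arntl, AAGTAGGTCA, began at position 28, within the transcript. Both Tef windows, at chr15:81802423-81802722 and chr15:81811164-81811463, held 1 E-box. No match was found in the windows of Dbp, Noct, Nr1d1 and Nr1d2, which says only that these letters are not in those windows. A match is a description of the sequence, and no binding was measured here.

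**Figure D1:**
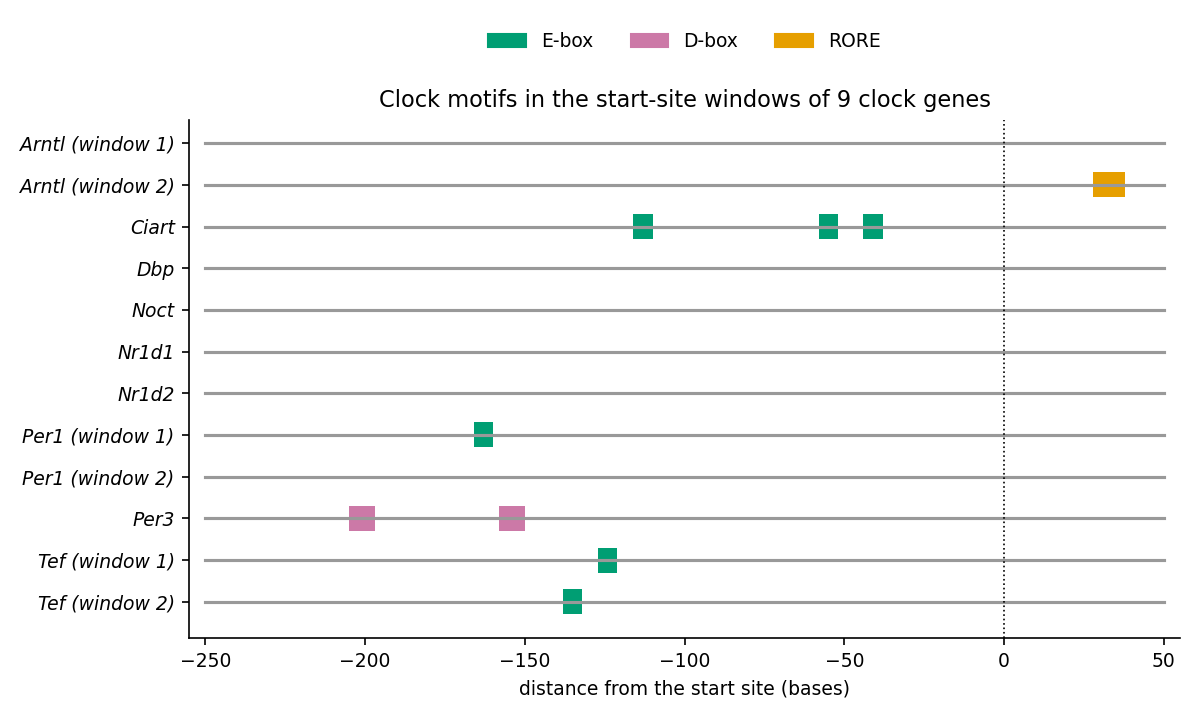
Positions of the 3 searched elements in the 12 RefSeq windows of 9 genes, as distance from the transcription start site in bases (dotted line, start site; grey lines, extent of each window; boxes, matches). Ciart has 3 E-boxes upstream of its start, Per3 has 2 D-boxes, and the RORE of Arntl lies just after the start.

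The 75th percentiles of the arrays lay between 320 and 439 intensity units, lowest on both sham arrays, at 321 and 320. From 52.5% to 58.0% of spots were well above background, and 0 spots were saturated. Levels are given as log2 of the intensity over the array's own 75th percentile, so a level of 0 is that percentile, and levels are compared only within a probe. The lowest level well above background was -4.25, -4.23 and -4.36 on control arrays and -4.56, -4.68 and -4.58 on clip arrays. On release arrays it was -3.90, -3.85 and -4.29, above that of every clip array. The floor of every control array also lay above that of every clip array. For the dim probes of Ciart and Per3, the orders of release above clip and of control above clip run the same way as this floor. The part of the floor in those orders was not tested. Each of 3 slides carried 1 array of each arm. Slide 3, which held the untreated kidney, was scanned on another date than the other two. Differences within each slide are given beside the pooled ones for that reason. All 10 tubule marker genes were well above background on all 9 arrays. The arrays read whole-kidney RNA, in which fewer cells of a type and less RNA per cell cannot be told apart.

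Arntl encodes the activator BMAL1. Its level was -3.99 and -3.84 in the sham kidneys, -2.92 in the untreated kidney, -1.55, -1.52 and -1.92 in the clip kidneys, and -1.03, -1.17 and -0.84 in the release kidneys. Every clip kidney lay above every control kidney, and every release kidney above every clip kidney. The arm means were -3.58 ± 0.58 (SD, n = 3) in control, -1.66 ± 0.22 in clip and -1.01 ± 0.16 in release kidneys. Arntl was thus 3.78-fold higher in clip than in control kidneys (log2 difference 1.92 ± 0.27, SE from the fit) and 5.93-fold higher in release kidneys (2.57 ± 0.27). The release kidneys exceeded the clip kidneys by 0.65 ± 0.27.

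On this scale Arntl stood further from control after release than during obstruction. The other 9 genes stood nearer, although with normexp background correction Per3 and Ciart were also further from control after release. Within slides Arntl exceeded control by 2.44, 2.31 and 1.0 in clip kidneys and by 2.96, 2.67 and 2.08 in release kidneys. The smallest of each set was on slide 3, where the control was the untreated kidney. With the sham kidneys alone as control the differences were 2.25 and 2.90. The probe was dim in control kidneys, at 20.2 and 22.4 intensity units in the shams and 54.8 in the untreated kidney, against 116 to 237 in the other arms. With normexp background correction of the median signals the differences from control were 1.08 in clip and 1.34 in release kidneys.

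The period genes encode the repressors PER1, PER2 and PER3, and all 3 were lower than control in both other arms. Per1 stood at 4.12 and 3.90 in the shams, 3.81 in the untreated kidney, 0.98, 1.58 and 1.56 in clip kidneys, and 2.10, 2.47 and 2.68 in release kidneys. The 3 arms did not overlap, with control highest and clip lowest. Against control Per1 was 5.95-fold lower in clip kidneys (-2.57 ± 0.20) and 2.89-fold lower in release kidneys (-1.53 ± 0.20). Within slides the difference was -3.15 to -2.25 for clip and -2.03 to -1.13 for release.

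For Per2 the levels were 0.39 and 0.31 in shams and -0.35 in the untreated kidney. They were -2.82, -3.07 and -2.26 in clip kidneys and -1.60, -1.06 and -1.49 in release kidneys. Again each arm stood apart, in the same order as for Per1, and the untreated kidney was the lowest of the controls. Per2 was 7.11-fold lower than control in clip kidneys (-2.83 ± 0.27) and 2.83-fold lower in release kidneys (-1.50 ± 0.27). A second, dimmer Per2 probe, well above background on all 9 arrays, gave -1.45 and -0.62 for the same differences, with release kidneys at -3.06, -3.05 and -3.79 against controls of -2.43, -2.41 and -3.19. On that probe control and release kidneys overlapped. Normexp correction moved the clip difference of the main probe to -1.43 and the release difference to -1.14.

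Per3 was read by a dim probe, at 14.2 to 66.6 intensity units, which was well above background on 2 of 3 clip arrays and on all others. Its levels were -2.27 and -2.70 in shams, -3.08 in the untreated kidney, -4.78, -4.58 and -4.22 in clip kidneys, and -3.36, -3.52 and -3.85 in release kidneys. No arm overlapped another. The differences from control were -1.84 ± 0.23 in clip kidneys (3.59-fold lower) and -0.89 ± 0.23 in release kidneys (1.86-fold lower). With normexp correction they were -0.01 and -0.41, so the size and the order of the clip and release levels of Per3 depend on how background is treated.

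Ciart, the gene of the repressor CHRONO with 3 E-boxes in the window printed above, was well above background in control kidneys and dim in both other arms. It stood at -2.35 and -2.17 in shams, -1.94 in the untreated kidney, -6.68, -6.86 and -6.82 in clip kidneys, and -6.04, -5.28 and -4.25 in release kidneys. All controls were detected, no clip array was well above background, and 1 of 3 release arrays was. The clip level is therefore only a bound, and Ciart was at least 5.48-fold lower in clip than in control kidneys. This sets the control mean against the dimmest level that still counted as well above background on each clip array. The fitted difference itself, -4.63 ± 0.38, is no bound.

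In release kidneys, where 1 array detected it, Ciart was at least 3.60-fold lower than control by the same floor. The fitted difference, -3.04 ± 0.38, rests on the undetected arrays as well. With normexp correction the differences from control were -0.50 in clip and -1.09 in release kidneys. Both low arms lay close to or under the detection level of the array, so their order has no firm basis.

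The REV-ERB genes were lower in clip than in control kidneys. Nr1d1 (REV-ERB alpha) stood at 0.01 and 0.32 in shams, -0.32 in the untreated kidney, -0.52, -0.67 and -0.86 in clip kidneys, and -0.14, -0.38 and -0.73 in release kidneys. On this main probe clip kidneys lay below all controls, while release kidneys overlapped both other arms. The differences were -0.69 ± 0.20 in clip (1.61-fold lower) and -0.42 ± 0.20 in release kidneys (1.34-fold lower). Its other probes gave -0.62 and -0.59 for clip and -0.16 and -0.07 for release. On both of them clip and control kidneys overlapped, and on slide 1 the release kidney lay above the sham. The dimmer of them was well above background on 4 of 9 arrays.

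Nr1d2 (REV-ERB beta) was tighter within arms. Its levels were 1.22 and 1.43 in shams, 1.47 in the untreated kidney, 0.10, 0.34 and 0.64 in clip kidneys, and 0.76, 0.90 and 0.79 in release kidneys. The arms did not overlap. Nr1d2 was 2.02-fold lower in clip (-1.01 ± 0.14) and 1.47-fold lower in release kidneys (-0.56 ± 0.14) than in control.

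**Figure D2:**
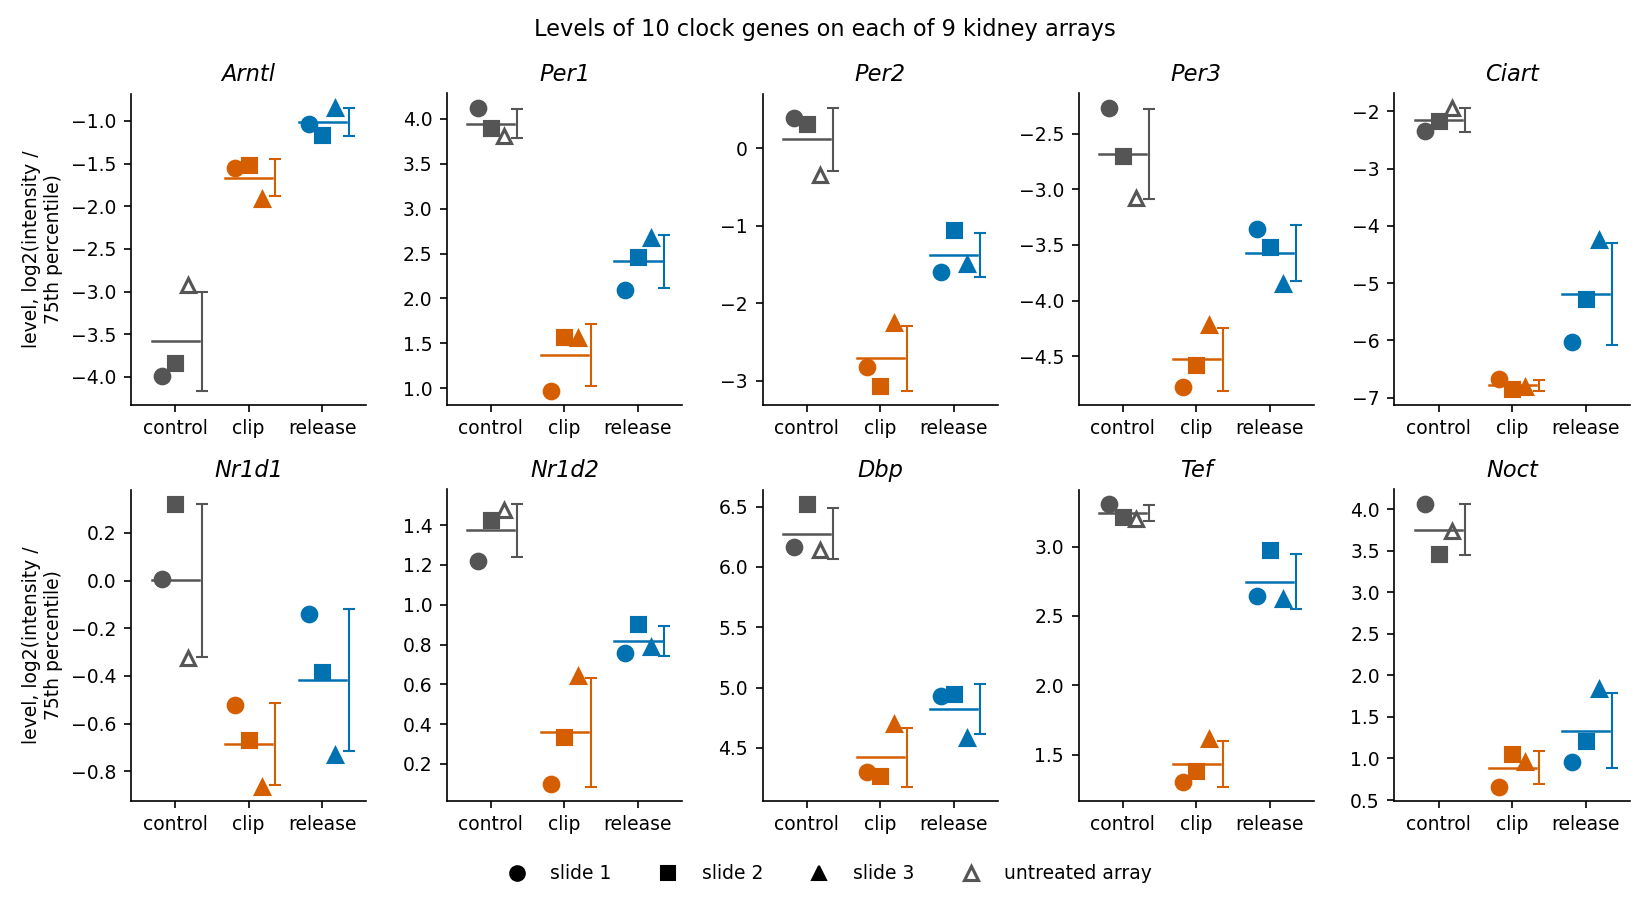
Level of each of the 10 genes on each of 9 arrays (log2 of intensity over the array's 75th percentile; vertical scales differ between genes), by arm. Marker shape gives the slide, the open triangle is the untreated kidney, horizontal lines are arm means and bars are ± 1 SD (n = 3); Arntl is highest in release kidneys, and the other 9 genes are highest on average in control kidneys.

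Among the outputs, Dbp and Tef encode related D-box factors. Dbp stood at 6.17 and 6.52 in shams, 6.14 in the untreated kidney, 4.30, 4.26 and 4.70 in clip kidneys, and 4.93, 4.95 and 4.58 in release kidneys. Both treated arms lay below all controls, and they overlapped each other. Dbp was 3.61-fold lower in clip (-1.85 ± 0.17) and 2.75-fold lower in release kidneys (-1.46 ± 0.17), so release kidneys differed from clip kidneys by 0.40 ± 0.17. On slide 3 the release kidney was below the clip kidney by 0.12, and on slides 1 and 2 it was above by 0.63 and 0.68.

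Tef lay nearer to control after release than Dbp did. It stood at 3.31 and 3.21 in shams, 3.20 in the untreated kidney, 1.30, 1.38 and 1.62 in clip kidneys, and 2.64, 2.97 and 2.62 in release kidneys. The arms did not overlap. The differences from control were -1.81 ± 0.13 in clip (3.50-fold lower) and -0.49 ± 0.13 in release kidneys (1.41-fold lower). A second Tef probe, well above background throughout, gave -1.85 and -0.95. On another, dim probe the untreated kidney was at -5.14 against -1.88 and -2.06 in the shams, and the differences were -1.35 and -0.24. Control kidneys overlapped both other arms on that probe.

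Noct, the gene of nocturnin, stood at 4.07 and 3.46 in shams, 3.74 in the untreated kidney, 0.66, 1.05 and 0.96 in clip kidneys, and 0.96, 1.21 and 1.83 in release kidneys. Every control lay above every other kidney, and clip and release kidneys overlapped. Noct was 7.28-fold lower than control in clip (-2.86 ± 0.24) and 5.36-fold lower in release kidneys (-2.42 ± 0.24). Its release kidneys stood 0.44 ± 0.24 above the clip kidneys. This bright probe kept its values under normexp correction, at -2.88 and -2.38.

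Set side by side on their main probes, 1 gene was higher and 9 were lower than control in clip kidneys. All 10 passed the threshold of an adjusted p of 0.05 (limma, BH-adjusted over all genes). Over all genes 48.9% passed, 21.4% higher and 27.5% lower. On the main probes the clip and control arms did not overlap for any of the 10, as for 58.6% of all genes. In release kidneys the same gene was higher and 6 of the 10 passed the threshold, 5 of them lower, against 1.83% of all genes in either direction, 1.46% higher and 0.372% lower. The release and control arms stood apart for 9 of 10 genes, against 27.2% of all genes. Between release and clip kidneys 6 genes passed, all higher after release, and 7 did not overlap, where 41.0% of all genes passed (23.5% higher) and 54.8% did not overlap. With normexp correction 8 genes passed in clip against control and 2 in release against clip, and with the mean of probes 9 passed in clip against control. The clip and release comparisons share their control kidneys, and the genes were chosen from these contrasts, so nothing is read from these counts.

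The median difference from control over the 10 genes was -1.85 in clip and -1.17 in release kidneys, where the medians of all genes were -0.09 and -0.01. On their main probes all 10 genes had the same sign against control on each of the 3 slides, in both arms. In release kidneys 9 of the 10 lay between their clip and control means, Arntl being the exception, but for Per3 (-0.41) and Ciart (-0.59) the release minus clip difference reversed with normexp correction. The number passing in release kidneys varied with the arrays and settings used. It was 0 without release 2, 1 without sham 2 and 0 when only the release and control arrays were fitted. It was also 1 with normexp correction and 2 without the filter on dim probes, and 7 with slide as a block, 6 of them lower, while all 10 signs stayed the same under each of these settings.

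**Figure D3:**
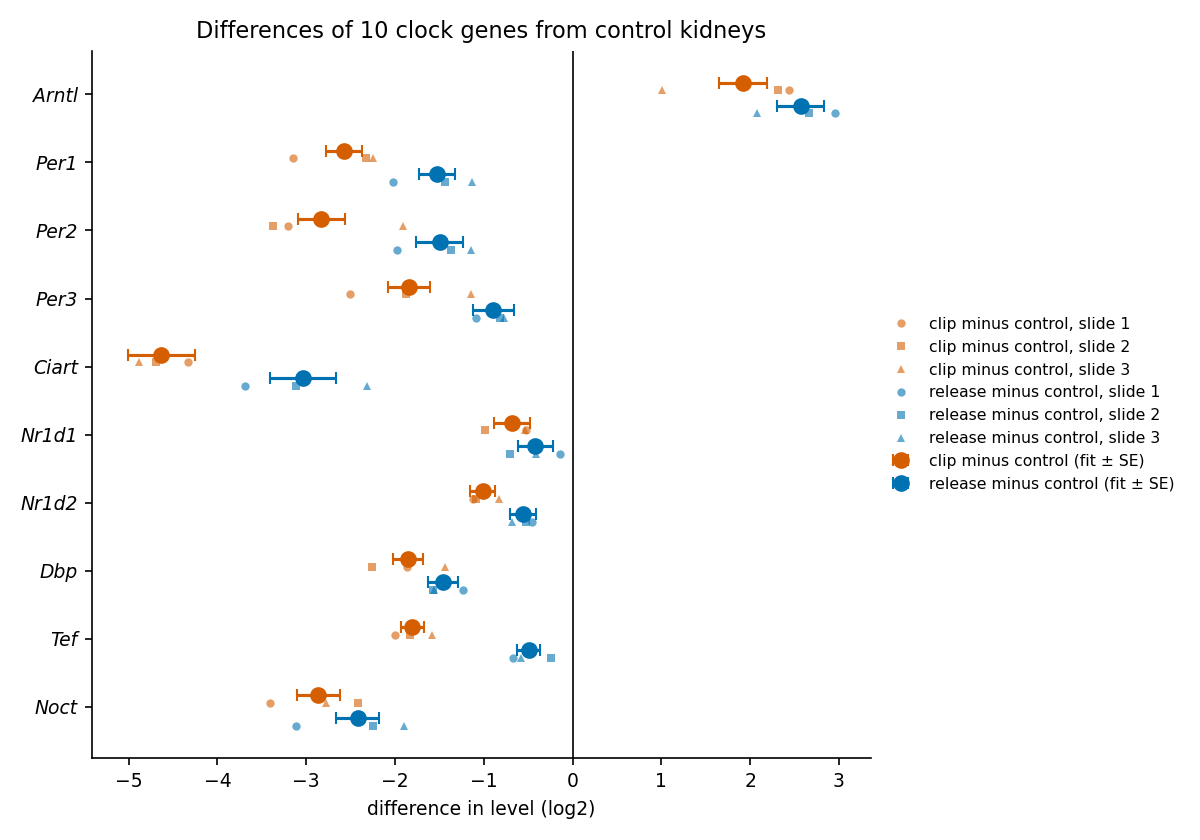
Difference in level from control kidneys (log2) for each of the 10 genes, in clip (orange) and release kidneys (blue); large points with bars are fitted differences ± SE over 3 arrays per arm, and small markers are the differences within each slide. Arntl alone lies right of 0, with its release point further from 0 than its clip point on this scale, and the Ciart probe was not detected on any clip array or on 2 release arrays.

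The untreated kidney was set against the sham kidneys, a difference not used to choose the genes. This fit kept sham, untreated, clip and release as 4 groups, and the single untreated array has no spread of its own. None of the 10 genes passed (0 of 10, limma, BH-adjusted; 1 at an unadjusted p under 0.05), where 0.524% of all genes passed and 12.3% had an unadjusted p under 0.05. Arntl differed most, at 0.99 ± 0.21 higher in the untreated kidney (adjusted p = 0.123, limma), followed by Per2 at -0.70 ± 0.34 (adjusted p = 0.451, limma). The differences of the other 8 genes ran from -0.59 for Per3 to 0.32 for Ciart. Slide 3 carried only this control, so slide and untreated status cannot be told apart in the plain fit. With slide as a block the Arntl difference was 1.05 (adjusted p = 0.359, limma), and with normexp correction it was 0.23. Sham and untreated kidneys may still differ in these genes by amounts that 3 arrays cannot show.

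Within arms the genes differed in how far kidneys spread. The pooled within-arm SD of Ciart, on a probe well above background on 4 of 9 arrays, was larger than that of 93.8% of all genes, and those of Per2 and Arntl were larger than 85.1% and 84.8%. Tef, at 36.6%, and Nr1d2, at 47.8%, spread less than most genes. Arrays also deviated in opposite directions for some pairs of genes. On 8 of 9 arrays Per2, Per3 and Dbp deviated from their arm mean with the sign opposite to Arntl, and Tef did so on 7. Ciart did so on only 1 array and Noct on 4. These 9 deviations share slides, scaling and arm means, so they are given as a description only.

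Other clock genes were taken from a list of 23, of which 18 were measured well enough to test. Npas2, Arntl2, Cry1 and Rorb were well above background on no array and Bhlhe41 on 1. In clip kidneys 4 of the 18 rose, 9 fell and 5 did not pass (limma, BH-adjusted over all genes), with a median of -0.40. Over all genes 21.4% rose and 27.5% fell. Hlf, a D-box factor related to Dbp and Tef, fell 6.23-fold (-2.64 ± 0.19, adjusted p = 1.70e-05). It did so on every slide, by -2.90 to -2.26. Fbxl21, a ubiquitin ligase subunit for CRY proteins, was at least 2.34-fold lower in clip kidneys, where no array detected it above background. With normexp correction its difference was 0.31. The probe was well above background on the 3 control arrays alone, so it entered the test only through the arm where it was high. Its place among the 9 that fell is therefore not read as a result.

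Timeless, on its main probe, went the other way in clip kidneys, rising 5.74-fold (2.52 ± 0.17, adjusted p = 1.27e-05, limma). Its mammalian protein and its partner Tipin are known mainly from DNA replication. In release kidneys Timeless was 5.19-fold lower than in clip kidneys (-2.37 ± 0.17) and 0.15 ± 0.17 from control (adjusted p = 0.655, limma). A second Timeless probe, well above background on all 9 arrays, rose less in clip kidneys. It stood at -2.54, -2.47 and -2.58 in control and -1.23, -1.06 and -1.42 in clip kidneys. In release kidneys it stood at -2.33, -1.95 and -2.44, above every control. Hlf was 1.92 ± 0.19 higher in release than in clip kidneys, past the threshold. Over the list 5 genes rose and 3 fell between clip and release kidneys. Among all genes 41.0% passed (23.5% higher), close to the share of the list.

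Against control, 2 of the 18 other clock genes fell in release kidneys, 0 rose and 16 did not pass, with a median of -0.15. Of all genes 0.372% fell and 1.46% rose. Cry2, a cryptochrome repressor, fell by 0.71 ± 0.13 on the log2 scale (adjusted p = 0.0424, limma), from 0.42, 0.09 and 0.19 in controls to -0.41, -0.31 and -0.71. Bhlhe40, a repressor that binds E-boxes, fell by 1.05 ± 0.20 (adjusted p = 0.0462, limma), from 2.86, 2.93 and 2.41 to 1.31, 1.90 and 1.85. For both genes control and release kidneys did not overlap. Neither call was firm: that of Cry2 was lost in 16 of 18 alternative settings (adjusted p 0.0333 to 0.279 over them) and that of Bhlhe40 in 12 (0.0353 to 0.161), and leaving out any 1 of the 9 arrays ended at least 1 of the 2 calls. Clock was named here for its product's pairing with BMAL1 after its values were seen. It differed from control by -0.35 ± 0.13 in clip (adjusted p = 0.056, limma) and -0.05 ± 0.13 in release kidneys (adjusted p = 0.843, limma). Neither passed the threshold. A brighter Clock probe was left out because 1 clip array had an outlier flag. On it the other clip kidneys, at 0.19 and 0.27, overlapped the controls at 0.21, 0.26 and 0.70.

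**Figure D4:**
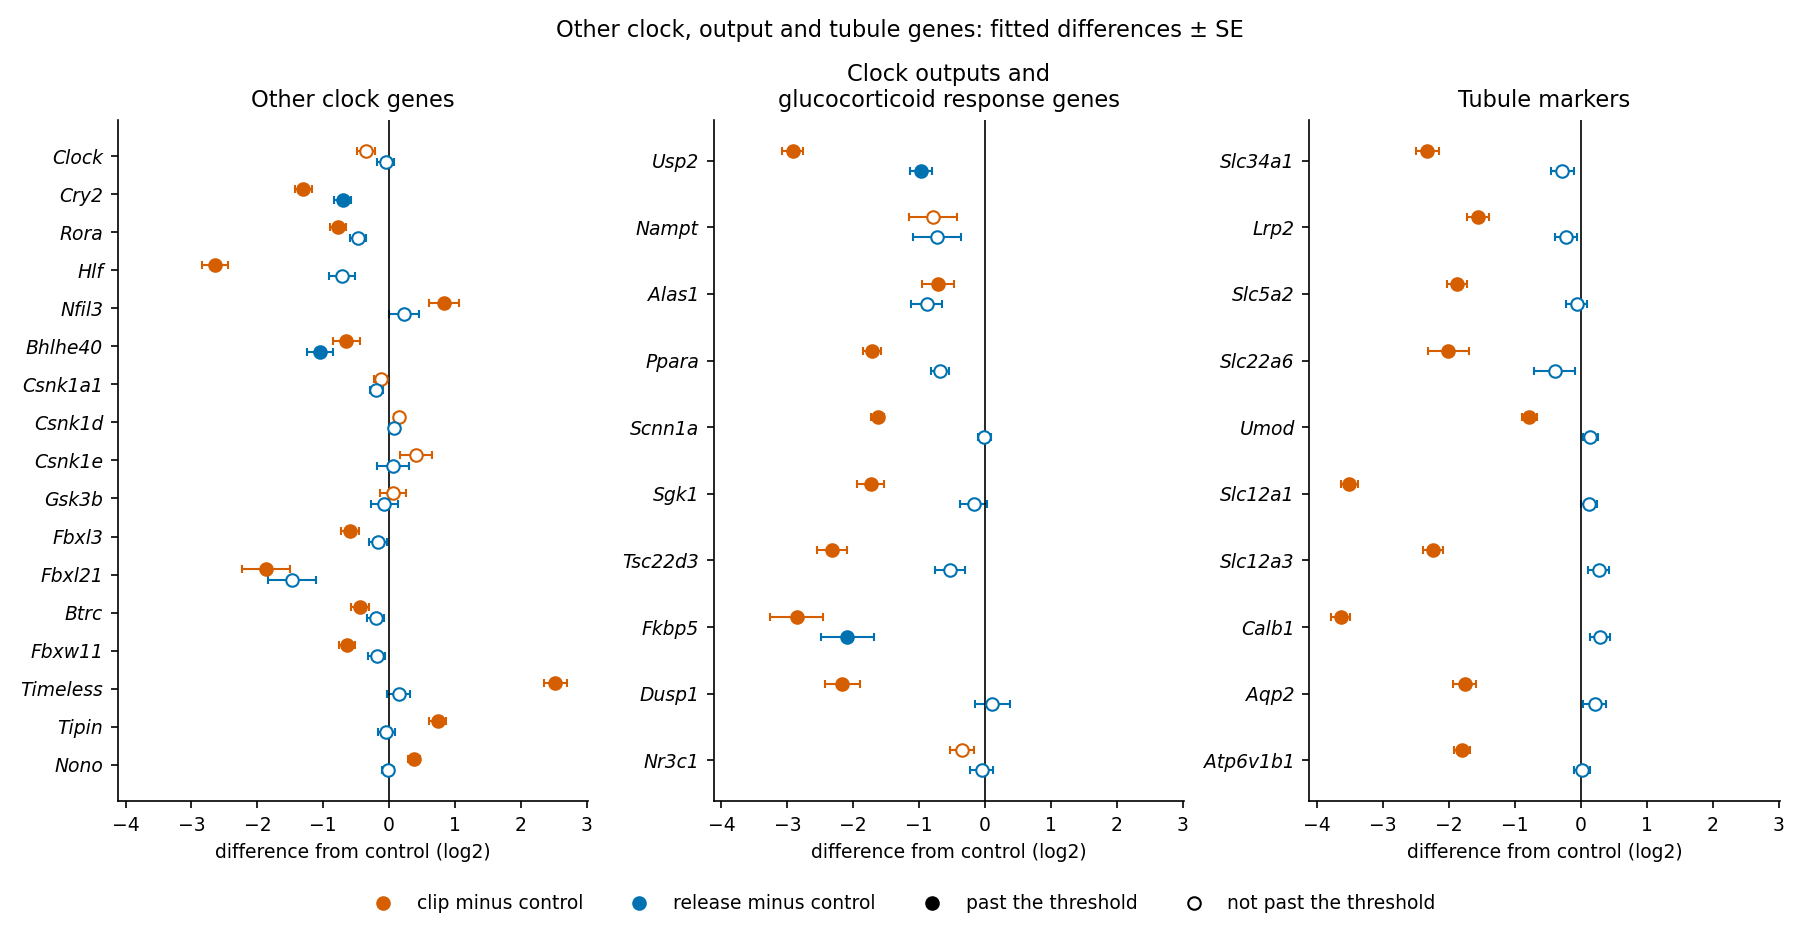
Fitted differences from control (log2, ± SE, 3 arrays per arm) for 17 of the 18 other clock genes, 10 clock output and glucocorticoid response genes, and 10 tubule markers, in clip (orange) and release kidneys (blue). Filled points passed the threshold of adjusted p 0.05 (limma, BH-adjusted over all genes); all 10 tubule markers are filled for clip and none for release.

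Known outputs of the clock were read from a list of 9 genes, 7 of them tested. In clip kidneys 0 rose and 6 fell (over all genes 21.4% and 27.5%), with a median of -1.71. Usp2, a ubiquitin protease with a strong daily rhythm, fell 7.57-fold (-2.92 ± 0.16, adjusted p = 6.10e-06, limma), and Ppara, the receptor that drives fatty acid oxidation, fell 3.28-fold (-1.71 ± 0.14). Sgk1 and Tsc22d3, which both act on the epithelial sodium channel, fell 3.33-fold and 4.99-fold. Between clip and release kidneys 5 of the 7 rose (over all genes 23.5%), among them the channel subunit Scnn1a by 1.62 ± 0.10. Against control in release kidneys 1 of 7 fell and 0 rose (over all genes 0.372% and 1.46%), with a median of -0.68. That gene was Usp2, at -0.97 ± 0.16 (adjusted p = 0.0382, limma), a call lost in 10 of 18 alternatives, over which its adjusted p ran from 0.0283 to 0.161. Scnn1a was at -0.01 ± 0.10 from control after release.

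Per1 and several of these genes are also known targets of glucocorticoids, so genes of that response were read from a list of 6, of which 5 were tested. In clip kidneys 4 fell and 0 rose (over all genes 27.5% and 21.4%), with a median of -2.17. Among the 4 were Sgk1 and Tsc22d3, already counted with the clock outputs above. Fkbp5, a classic receptor target, fell 7.26-fold on its main probe (-2.86 ± 0.40, adjusted p = 0.000484, limma) and Dusp1, a phosphatase, 4.49-fold (-2.17 ± 0.27). On both other Fkbp5 probes clip kidneys also lay below all controls, but the differences were smaller. Clip levels were -1.98 to -1.87 against -1.32 to 0.61 in controls on one, and -3.16 to -2.84 against -2.66 to -0.66 on the other. In release kidneys 1 of 5 fell and 0 rose (over all genes 0.372% and 1.46%). Fkbp5 was at 2.77, 1.71 and 1.84 in controls and at -0.43, -0.32 and 0.80 in release kidneys, a difference of -2.09 ± 0.40 (adjusted p = 0.0451, limma). The mean of its 3 probes gave -1.30, and on both other probes, well above background on all 9 arrays, control and release kidneys overlapped. Its call was lost in 16 of 18 alternatives, over which the adjusted p ran from 0.0347 to 0.161, and on leaving out any 1 array. Dusp1 in release kidneys was at 0.11 ± 0.27 and Sgk1 at -0.17 ± 0.20 from control. The part of this response in the levels of Per1 and the other members was not tested.

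Of the 28 cell type markers tested, 7 rose, 15 fell and 6 did not pass in clip against control kidneys (limma, BH-adjusted). Among all genes 21.4% rose and 27.5% fell in that comparison. All 10 tubule markers fell in clip kidneys (median -1.95) and rose again between clip and release kidneys, and in release kidneys 0 of 10 differed past the threshold from control (median 0.07; 0 at an unadjusted p under 0.05, limma). The summed level of the 4 proximal tubule markers was 8.80 to 9.05 in control, 6.60 to 7.36 in clip and 8.53 to 8.87 in release kidneys. That of the 3 fibroblast and myofibroblast markers was 4.09 to 4.32, 6.49 to 6.91 and 4.78 to 5.12. That of the 3 macrophage markers tested was 2.19 to 2.53, 2.79 to 2.99 and 2.69 to 2.96. The macrophage sum weighs most on Csf1r, the brightest of the 3. Csf1r stood at 1.95 to 2.30 in control, 2.21 to 2.47 in clip and 2.42 to 2.61 in release kidneys. Adgre1 stood at -0.54 to -0.15, 1.13 to 1.23 and 0.12 to 0.71 in these arms. Itgam was well above background on the 3 clip arrays alone. Among the 28 cell type markers tested, 3 rose in release against control kidneys (Pdgfrb, Col1a1 and Cd3g; limma, BH-adjusted) and 0 fell. Over all genes 1.46% rose and 0.372% fell. The dim Cd3g probe was well above background on 0 control arrays and 2 release arrays. Cd3e, the other T cell marker, was well above background on all 9 arrays, and its control and release kidneys overlapped. The adrenal cortex markers Cyp11a1 and Cyp11b1 were not tested, Cyp11a1 being well above background on no array. The part of cell composition in the clip and release levels of the 10 clock genes was not tested.

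The genes whose pattern over the 9 arrays was most like that of Arntl were sought among 13017 genes with a symbol. Likeness was the root mean square difference of log2 levels after each gene's mean was removed. Nearest to Arntl were Alx1 (0.43 log2 units), Celf3 (0.50), Wnt4 (0.51), Cdkn2b (0.52) and Rps6kl1 (0.54). Nearest to its mirror image were Pla2g2c (0.51), then Dbp (0.57), followed by Ubxn10, Kcnk5 and Mcm10 (0.58 to 0.63). Dbp, a member itself, was thus second among these 13017 genes in mirroring Arntl. Both genes were chosen with their arm differences known, so nothing is read from this rank.

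The pattern of Dbp was matched more closely, by Cyp2j9 (0.29), Lonrf1 (0.30), Stk35 (0.32), Coq10b (0.33) and Hmgcs1 (0.34). Its mirror image was nearest to Mfap4 and Sh3gl3 (both 0.22), Nlrp10 and Thbs2 (both 0.23) and Muc1 (0.24). None of these genes is in the lists of other clock or output genes. The measure covers 9 arrays in 3 arms, so likeness here is mostly likeness of the 3 arm means.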

How the data were processed

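Total RNA of 9 kidneys was read on single-colour Agilent arrays (design 014868; Feature Extraction 10.7.3.1, protocol GE1_107_Sep09, per the file headers). Spots are deposited as an intensity after subtraction of background and spatial trend within the array, per the file headers, unscaled between arrays. The other columns used are deposited flags that mark detection above background, saturation and outliers. A deposited table of log2 values was not used: 8080 of its 8142 rows with values name an array probe, of which 0 lay within 0.02 of that probe's scanner values and 8045 that close to another probe.

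Levels are log2 of the intensity over the array's 75th percentile, without outlier spots. Probes were named by RefSeq accession and kept when well above background on at least 3 of 9 arrays. Outlier flags left 21 of the kept probes without a value on some array, and these were not used. The brightest remaining probe stood for a gene, which left 17741 genes. Moderated linear models (limma 3.58.1, R 4.3.3) were fitted to 3 arms, tested on simulated data, and p-values adjusted by Benjamini-Hochberg (BH) over all genes (threshold 0.05). The simulated arrays were independent of each other, so they did not cover the correlation within slides given below. SEs pool all arms. P-values measure only the spread between these samples, and the number of arrays limits precision.

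The members and lists were chosen with earlier results of these data known. Named genes were all members, up to 4 per list and comparison past the threshold by size of change, less 1 gene of the other clock list that is not reported here, and the 5 genes nearest to Arntl, to Dbp and to the mirror image of each. A fold is "at least" where no array of the lower arm was well above background, and also for Ciart in release kidneys, where 1 of 3 was. Deviations from arm means, between arrays of different arms, correlated at 0.161 to 0.281 within slides (9 pairs) and at -0.239 to 0.00288 across slides (18 pairs). Alternatives were normexp correction, quantile normalization, the mean of probes, no filter or a stricter one, slide or replicate as a block, the shams alone as control, only the arms compared, and each array left out. Normexp was planned on mean signals; median signals were used in their place, a choice made after seeing the data.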

Additional observations from a re-analysis of the deposited data

How the results depend on the processing

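Against control, all 10 genes kept their direction under each alternative that tested them, including the block fits and each array left out. The filter for detection on all 9 arrays tested 8 of them, without Ciart and Per3. Of their values in the 3 comparisons under alternatives other than leaving out an array, 247 moved by less than the SD between replicates, 15 moved by more and 2 reversed. With normexp correction the release minus clip differences reversed for Per3 (-0.41) and Ciart (-0.59), and the clip minus control differences for Fbxl21 (0.31) and Ubxn10 (0.10). All genes past the threshold numbered 8676 in clip against control (5626 with normexp; 7147 to 8605 without 1 array) and 7270 in release against clip (4144 with normexp, 13597 without a filter; 5712 to 7652 without 1 array). In release against control 325 passed, but 1 with normexp, 117 with quantile normalization, 12 without a filter, 1163 with slide as a block (751 higher, 412 lower), 203 with the replicate block, 0 with only the 2 arms, and 2 to 343 without 1 array, the 2 being without release 2. Other clock genes past the threshold in release against control numbered 2, but 0 with normexp, quantile normalization, no filter or only the 2 arms, 1 with the mean of probes or the shams alone, and 0 to 1 without 1 array. In release against clip they numbered 8, and 5 with normexp. The replicate numbers pair arrays of 1 slide except for the untreated array (correlations of deviations -0.209 to 0.269 over 9 pairs), and the replicate block left 5 of the 10 genes past the threshold in release against control where 6 were without it. The cause of these shifts was not tested; normexp changed the input signal, the background correction and the offset (50 units) together. The probes of Ciart, Per3 and Fbxl21 were not detected above background on some arrays, and that of Arntl was dim in control kidneys. The part of signal over background in these shifts was not tested.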
